A study of Mus musculus with 8 samples.

Results

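The BMP receptors and Smads described here are 10 mouse genes, namely the receptors Bmpr1a, Bmpr1b, Acvr1 and Bmpr2 and the signal transducers Smad1, Smad5, Smad2, Smad3, Smad4 and Smad7. Their members were all array probes of genes that carried one of these names in the array files, which gave 19 probes among 41174 gene probes. After dim probes were left out, 28104 probes of 19032 genes remained, and all 19 member probes were among them. Of the 10 genes, 4 had 1 probe, 3 had 2 probes and 3 had 3 probes.

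RNA was measured on 8 Agilent whole-genome mouse arrays of 1 colour, 1 array per sample. All samples came from primordial germ cells made in culture from Dazl-GFP-V5 embryonic stem cells of the V6.5 line (strain C57BL/6 129SV mixed), which were freed of feeder cells and kept for 12 days in Differentiation Medium. DAZL binds RNA in germ cells, and every group, controls included, carried the tagged form. The 4 groups, with 2 arrays each, were an immunoprecipitation (IP) with anti-V5, an IP with anti-GFP, a mock IP with normal mouse IgG, and total input RNA taken with no antibody. The IPs were made from native lysates without UV crosslinking, and what drives the tagged Dazl and whether the cells were 1 clone are not given in the sources used here. The replicates are described as independent experiments, but not as separate cultures, so p-values measure only how far these arrays spread, in part perhaps for technical reasons. All 9 primordial germ cell markers and all 5 pluripotency markers looked up were well above background in both inputs. So were 24 of 25 markers of endoderm, mesoderm, neuroectoderm, fibroblasts or feeders, and blood and endothelium, and the part of other lineages in the results below was not tested.

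BMP ligands bind a pair of type I and a pair of type II serine/threonine kinase receptors, and the type II receptor activates the type I receptor. The activated type I receptor phosphorylates receptor-regulated Smads, Smad1 and Smad5 for BMPs and Smad2 and Smad3 for activin, Nodal and TGF-beta, which join Smad4 and enter the nucleus. Inhibitory Smads such as Smad7 shut the pathway down. In the mouse embryo, BMP signals from the extraembryonic ectoderm through Smad1 and Smad5 are needed for primordial germ cells to form.

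Values are log2 of the processed spot intensity minus the array's 75th percentile, so that 0 is that percentile and each fold is relative to the other RNA on the same array. Where a gene had several probes, the brightest on average represents it. Differences were tested with limma over all 8 arrays, with p-values adjusted over all genes, and a gene was called at an adjusted p under 0.05. The spread is estimated over all groups at once, so the inputs contribute to p-values for an IP set against mock IP. All genes together had a median log2 fold change of -0.44 for either IP over mock IP, -0.11 for either IP over input and 0.20 for mock IP over input. Mock 1 was the dimmest array, with a 75th percentile of 352 intensity units against 641 to 1130 on the others, and the second principal component, with 24.5% of the variance, set it apart. The mRNA of Dazl rose 6.19-fold in anti-V5 IP (adjusted p = 0.00494, limma) and 6.56-fold in anti-GFP IP (adjusted p = 0.00388) over mock IP. Over input it rose 2.46-fold (adjusted p = 0.0417, limma) and 2.61-fold (adjusted p = 0.0297). In mock IP it had a log2 difference of -1.33 from input (adjusted p = 0.0637, limma).

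Against mock IP, 6 of the 10 genes rose in anti-V5 IP and 6 rose in anti-GFP IP, and 0 were called lower in either. In each comparison these were Bmpr1a, Bmpr1b, Smad1, Smad4, Smad5 and Smad7, and the comparisons share the mock arrays. At an unadjusted p under 0.05 (limma), 1 gene, Smad3, was lower in anti-V5 IP and 0 in anti-GFP IP. In either direction, 7 of the 10 had such a p in each IP, against 50.2% and 53.6% of all genes. Over all genes 14.6% were called higher and 21.4% lower in anti-V5 IP, and 16.3% were called higher and 26.5% lower in anti-GFP IP. Smad1 and Bmpr1b had the largest folds of the 10 with either antibody. Acvr1, Bmpr2, Smad2 and Smad3 were not called. The median log2 fold change of the 10 genes was 0.82 in anti-V5 IP and 0.97 in anti-GFP IP, which is 1.26 and 1.40 above the median of all genes. In either IP, both arrays lay above both mock arrays for 7 of 10 genes, against 22.3% of all genes for V5 and 23.8% for GFP. Both arrays lay below both mock arrays for Smad3, against 47.2% and 48.2% of all genes.

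**Figure D1:**
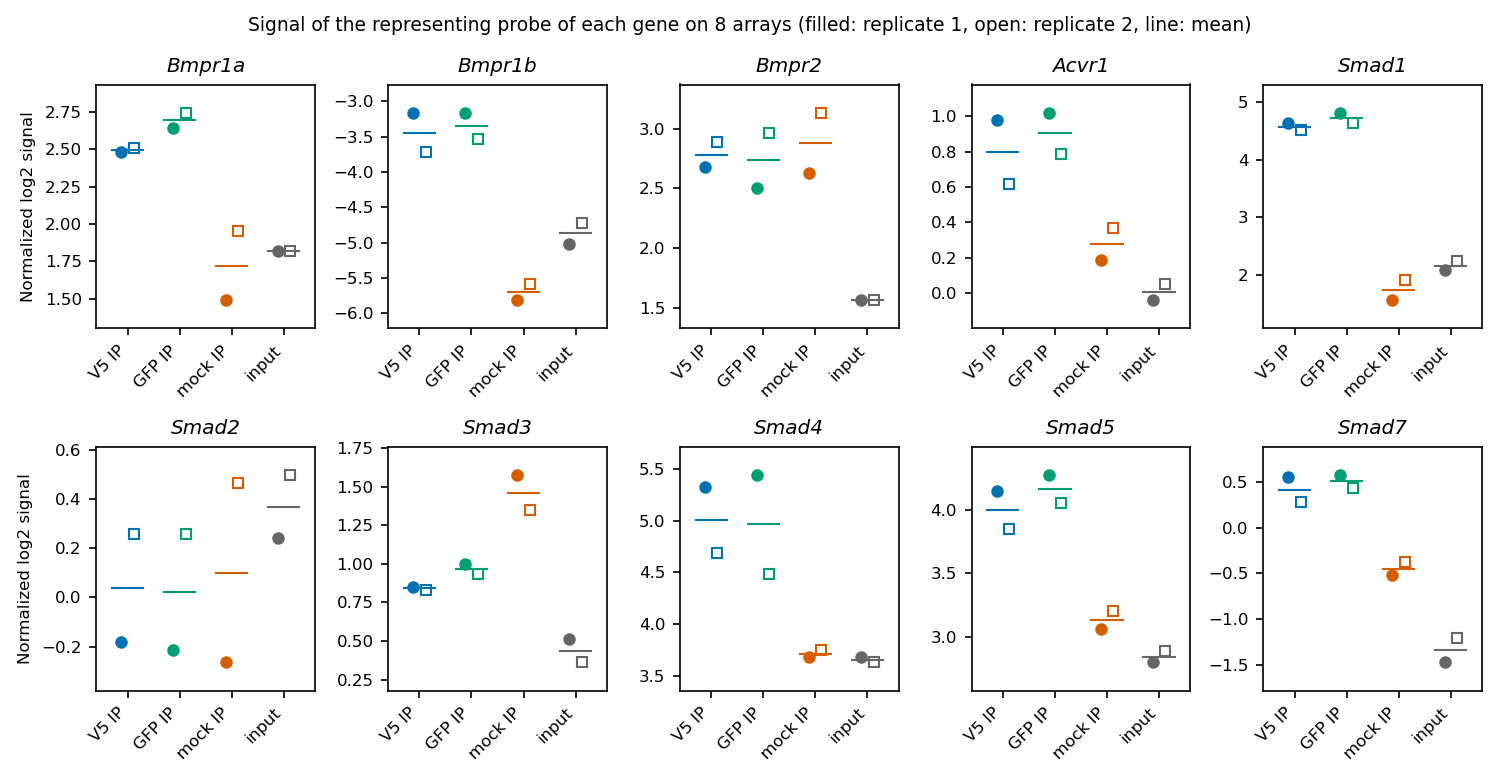
Normalized log2 signal (vertical axis, a scale of its own in each panel) of the probe that represents each gene, in anti-V5 IP, anti-GFP IP, mock IP and input (horizontal axis). Points are arrays (filled for replicate 1, open for replicate 2) and lines are means of 2 arrays. Smad1 lies between 4.51 and 4.82 on the 4 V5 and GFP arrays and between 1.56 and 2.25 on the mock and input arrays.

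How firmly these calls hold differed between the genes. Smad1 kept its call in both IPs under all 16 alternative settings tried. Bmpr1b lost it in both only with normexp background correction, where its log2 fold changes were 0.33 in anti-V5 IP and 0.87 in anti-GFP IP. Fits without 1 array leave 1 array in a group. In anti-V5 IP each of them called fewer of the 10 genes higher than the full fit. None of them called more in anti-GFP IP. Smad1 had log2 fold changes of 2.67 to 3.01 in anti-V5 IP and 2.82 to 3.17 in anti-GFP IP in those fits. Bmpr1b had 1.98 to 2.54 and 2.18 to 2.55. The others lost their calls more often: Bmpr1a in 11 of 16 settings for V5 and 5 for GFP, Smad4 in 8 and 7, Smad5 in 8 and 4, and Smad7 in 10 and 5. In anti-V5 IP the fits without 1 array also called fewer of all genes higher, in some of them only slightly fewer. With slide as a block, 6 genes were higher and 1, Smad3, lower in anti-V5 IP, and 7 were higher in anti-GFP IP. That setting called 19.4% of all genes higher and 38.5% lower in anti-V5 IP, and 20.9% and 40.3% in anti-GFP IP. No called gene changed its direction in either IP against mock IP under any of the 16 settings.

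Among the type I receptors, Bmpr1a, which binds BMP2 and BMP4 and is needed in the epiblast of the mouse embryo, rose by less than a factor of 2. Its log2 signal was 2.48 and 2.51 on the V5 arrays, 2.65 and 2.75 on the GFP arrays, 1.49 and 1.95 on the mock arrays and 1.82 on both input arrays. The 4 V5 and GFP arrays lay above all 4 mock and input arrays, and mock 1 was the lowest. The fold over mock IP was 1.71 in anti-V5 IP (log2 0.78 ± 0.24, SE, adjusted p = 0.0420, limma) and 1.97 in anti-GFP IP (log2 0.98 ± 0.24, adjusted p = 0.0185). Within slide 1 and slide 2 the log2 differences were 0.99 and 0.56 for V5 and 1.16 and 0.79 for GFP. The other Bmpr1a probe gave 1.10 in anti-V5 IP (adjusted p = 0.0643 over all probes) and 1.27 in anti-GFP IP (adjusted p = 0.0372).

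Bmpr1b, a BMP type I receptor close to Bmpr1a in sequence, was measured by 1 dim probe. The log2 signal of Bmpr1b was -3.17 and -3.72 on the V5 arrays, -3.16 and -3.53 on the GFP arrays, -5.82 and -5.59 on the mock arrays and -5.02 and -4.72 on the input arrays. The 4 V5 and GFP arrays lay above the inputs, and the inputs lay above the mock arrays, on neither of which the probe was well above background. The log2 fold change over mock IP was 2.26 in anti-V5 IP (95% interval 1.59 to 2.93, adjusted p = 0.00314, limma). In anti-GFP IP it was 2.36 (1.70 to 3.03, adjusted p = 0.00250). With normexp background correction these were 0.33 and 0.87, and neither was called. A bound on the ratio of the means, which leaves out the spread of the arrays, was 3.97-fold for V5 and 4.27-fold for GFP. That bound sets the IP mean against, on each mock array, the higher of the probe's own signal and the lowest signal of any probe well above background there.

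Acvr1, also called ALK2, is a type I receptor that mediates BMP7 signals. Its log2 signal was 0.98 and 0.61 on the V5 arrays, 1.02 and 0.78 on the GFP arrays, 0.19 and 0.37 on the mock arrays and -0.04 and 0.05 on the input arrays. All V5 and GFP arrays were above all mock arrays, but the difference did not pass the threshold. The log2 fold change was 0.52 ± 0.24 in anti-V5 IP (SE, adjusted p = 0.122, limma) and 0.63 ± 0.24 in anti-GFP IP (adjusted p = 0.0702). The GFP difference passed with the slide as a block (adjusted p = 0.0383), with median centring (0.0458) and in the authors' deposited table (0.0371).

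Bmpr2, the type II receptor for BMPs, did not separate the IPs from mock IP. The log2 signal of Bmpr2 was 2.68 and 2.89 on the V5 arrays, 2.51 and 2.96 on the GFP arrays, 2.63 and 3.13 on the mock arrays and 1.57 on both input arrays. V5, GFP and mock arrays overlapped, and all 6 lay above both inputs. The log2 fold change over mock IP was -0.10 in anti-V5 IP (95% interval -0.75 to 0.55) and -0.15 in anti-GFP IP (-0.79 to 0.50), and neither the sign nor the size held across settings. In the files the probe that represents Bmpr2 carries the identifier of a cDNA clone. The other Bmpr2 probes gave 0.13 and 0.02 in anti-V5 IP and 0.02 and -0.15 in anti-GFP IP.

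Among the BMP-activated Smads, Smad1 had a fold of 7.17 in anti-V5 IP and 7.98 in anti-GFP IP over mock IP. Its log2 signal was 4.64 and 4.51 on the V5 arrays, 4.82 and 4.64 on the GFP arrays, 1.56 and 1.91 on the mock arrays and 2.08 and 2.25 on the input arrays. The V5 and GFP arrays lay far above the rest and did not overlap with them, and both mock arrays lay below both inputs. The log2 fold change was 2.84 ± 0.24 in anti-V5 IP (SE, 95% interval 2.29 to 3.40, adjusted p = 0.00208, limma) and 2.996 ± 0.238 in anti-GFP IP (2.44 to 3.55, adjusted p = 0.00172). It was the 164th highest of 19032 genes in anti-V5 IP and the 118th highest in anti-GFP IP. Within slide 1 and slide 2 the differences were 3.08 and 2.60 for V5 and 3.26 and 2.74 for GFP.

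A second Smad1 probe gave 2.36 in anti-V5 IP (adjusted p = 0.00287 over all probes) and 2.56 in anti-GFP IP (adjusted p = 0.00230). The log2 signal of this probe was 1.01 and 0.47 on the V5 arrays, 1.11 and 0.77 on the GFP arrays, -1.72 and -1.53 on the mock arrays and -1.62 and -1.50 on the input arrays. Both Smad1 probes thus placed all 4 V5 and GFP arrays above all mock and input arrays. Over the 8 arrays, Timp3, an inhibitor of metalloproteinases, followed the Smad1 signal most closely of 15227 genes, with a Pearson r of 0.999. Glcci1 and the kinesin gene Kif5c followed with 0.998 each. These 8 points share their arrays and fall into separate groups, so the likeness is a description.

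Smad5, the close relative of Smad1, rose in both IPs, and whether its fold differed from that of Smad1 was not tested. Its log2 signal was 4.15 and 3.85 on the V5 arrays, 4.27 and 4.05 on the GFP arrays, 3.06 and 3.20 on the mock arrays and 2.80 and 2.89 on the input arrays. No V5 or GFP array overlapped with a mock or input array. The fold was 1.82 in anti-V5 IP (log2 0.87 ± 0.23, SE, 95% interval 0.32 to 1.41, adjusted p = 0.0294, limma) and 2.04 in anti-GFP IP (log2 1.03 ± 0.23, 0.49 to 1.57, adjusted p = 0.0147). The other Smad5 probes gave 1.59 and 1.09 in anti-V5 IP, of which the first passed (adjusted p = 0.0103 and 0.0541 over all probes). In anti-GFP IP they gave 1.63 and 1.20, and both passed (adjusted p = 0.00796 and 0.0354).

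The Smads of the activin, Nodal and TGF-beta branch were not called higher in either IP. Smad2 had log2 signals of -0.18 and 0.26 on the V5 arrays, -0.22 and 0.26 on the GFP arrays, -0.26 and 0.47 on the mock arrays and 0.24 and 0.50 on the input arrays. All 4 groups overlapped, and replicate 1 was below replicate 2 in each. The log2 fold change was -0.06 in anti-V5 IP (95% interval -0.84 to 0.71) and -0.08 in anti-GFP IP (-0.86 to 0.69).

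Smad3 was the gene of the 10 whose V5 and GFP arrays all lay below both mock arrays. The log2 signal of Smad3 was 0.85 and 0.83 on the V5 arrays, 0.998 and 0.932 on the GFP arrays, 1.58 and 1.35 on the mock arrays and 0.51 and 0.36 on the input arrays. The IP arrays thus lay between the mock arrays and the inputs. The log2 fold change was -0.62 ± 0.22 in anti-V5 IP (SE, adjusted p = 0.0605, limma) and -0.50 ± 0.22 in anti-GFP IP (adjusted p = 0.103), close to the median of all genes. The V5 difference passed with the slide as a block (adjusted p = 0.0265), with quantile normalization (0.0396) and without mock 2 (0.0371).

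The 2 other Smad3 probes were both below mock IP on average. The first gave -0.81 in anti-V5 IP (adjusted p = 0.0504 over all probes) and fell by 0.91 on the log2 scale in anti-GFP IP (adjusted p = 0.0312). The second, which was not well above background on V5 1, GFP 1 and mock 1, gave -0.32 in anti-V5 IP and -0.16 in anti-GFP IP. Counted by probe, 9 of 19 were called higher and 0 lower in anti-V5 IP, against 15.4% and 17.1% of all probes, and 2 Smad3 probes were lower there at an unadjusted p under 0.05 (limma). In anti-GFP IP, 11 were called higher and 1 lower, against 17.1% and 22.5%.

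**Figure D2:**
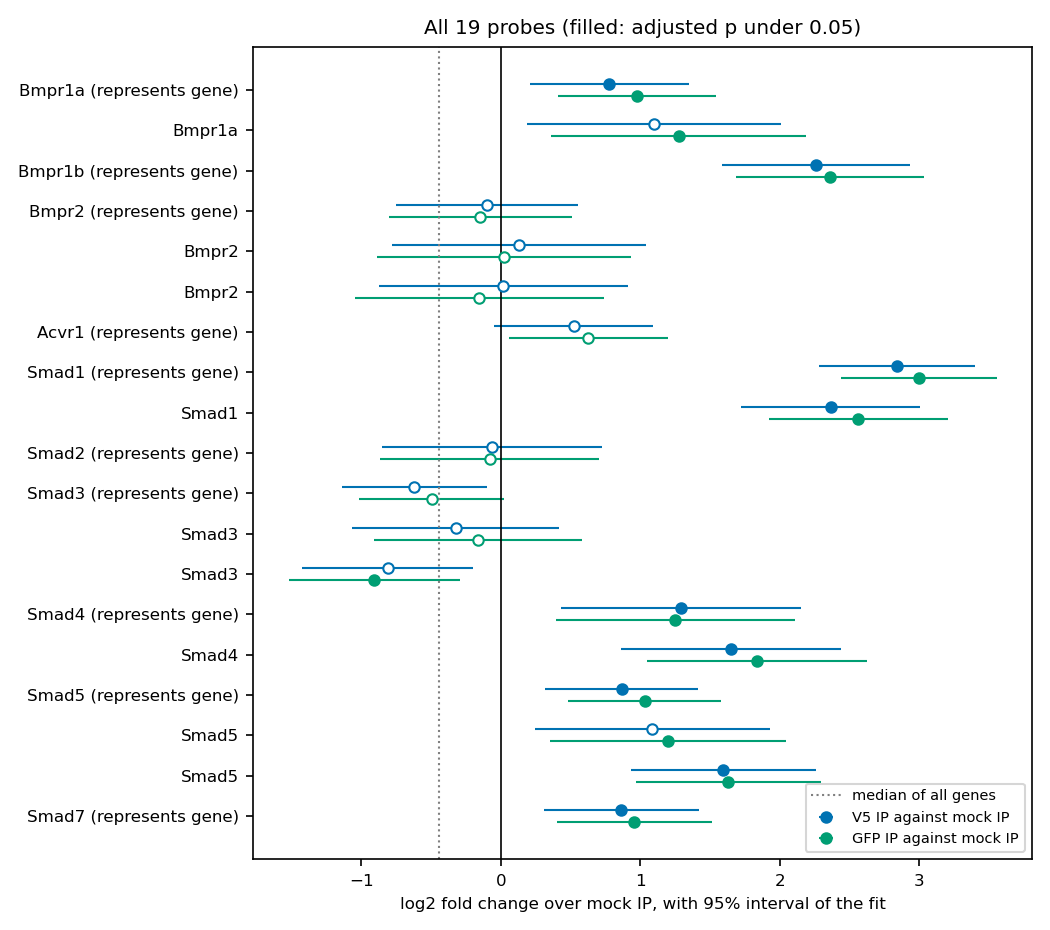
Log2 fold change of all 19 probes over mock IP (horizontal axis), anti-V5 IP above anti-GFP IP in each pair, with the 95% interval of the fit and filled points at an adjusted p under 0.05. The dotted line is the median of all genes, -0.44. Both Smad1 probes lie at 2.36 or more, and the 3 Bmpr2 probes lie within 0.16 of 0.

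Smad4, the common partner of all receptor-regulated Smads, rose in both IPs. Its log2 signal was 5.32 and 4.69 on the V5 arrays, 5.44 and 4.49 on the GFP arrays, 3.68 and 3.75 on the mock arrays and 3.68 and 3.63 on the input arrays. V5 and GFP arrays lay above all others, with replicate 1 above replicate 2 in both IPs. The fold was 2.45 in anti-V5 IP (log2 1.29 ± 0.36, SE, adjusted p = 0.0322, limma) and 2.38 in anti-GFP IP (log2 1.25 ± 0.36, adjusted p = 0.0288). Within slide 1 and slide 2 the differences were 1.64 and 0.94 for V5 and 1.76 and 0.74 for GFP. The second Smad4 probe gave 1.65 in anti-V5 IP (adjusted p = 0.0168 over all probes) and 1.84 in anti-GFP IP (adjusted p = 0.00951).

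Smad7, an inhibitory Smad that blocks receptors of both branches, also rose. The log2 signal of Smad7 was 0.55 and 0.28 on the V5 arrays, 0.58 and 0.43 on the GFP arrays, -0.52 and -0.38 on the mock arrays and -1.48 and -1.21 on the input arrays. The arrays fell in the order V5 and GFP, then mock, then input, with no overlap between these levels. The fold over mock IP was 1.82 in anti-V5 IP (log2 0.86 ± 0.24, SE, adjusted p = 0.0306, limma) and 1.94 in anti-GFP IP (log2 0.96 ± 0.24, adjusted p = 0.0184).

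**Figure D3:**
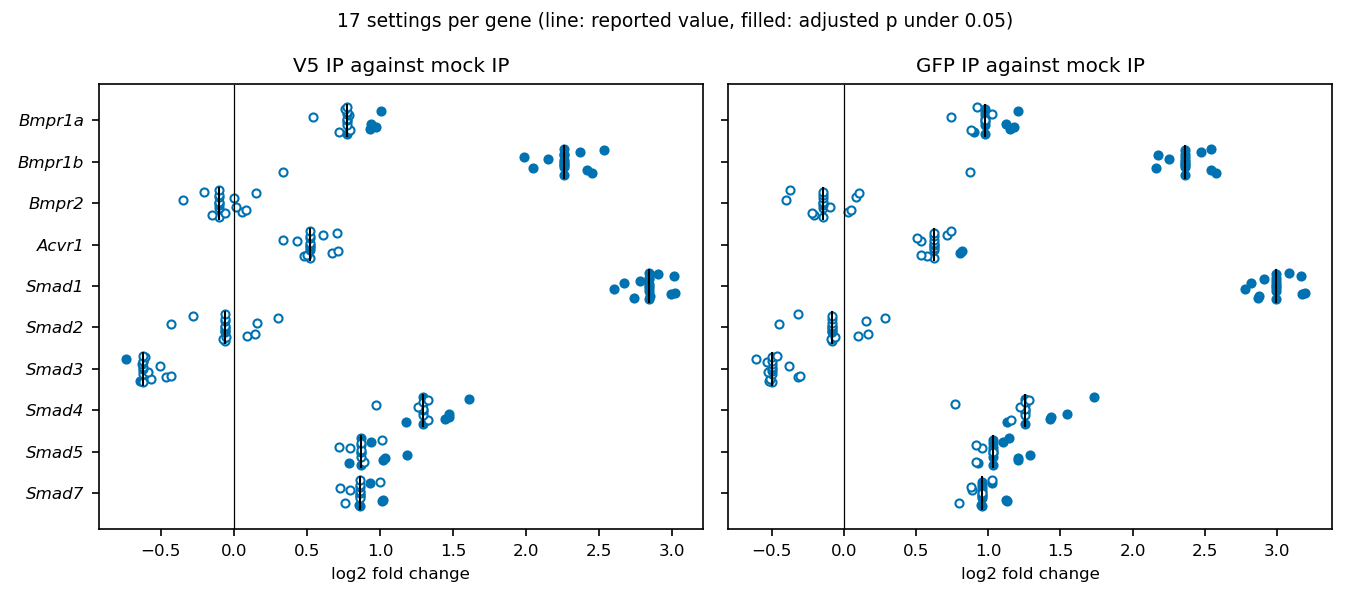
Log2 fold change over mock IP (horizontal axis) of each gene under the reported setting (line) and 16 alternatives, for anti-V5 IP (left) and anti-GFP IP (right), with filled points at an adjusted p under 0.05. Smad1 is filled throughout, between 2.60 and 3.02 in anti-V5 IP and between 2.78 and 3.19 in anti-GFP IP, and Bmpr2 and Smad2 lie on both sides of 0.

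Set against total input, 7 of 10 genes rose in anti-V5 IP and 8 rose in anti-GFP IP. Over all genes 14.1% were called higher in anti-V5 IP and 16.0% in anti-GFP IP. Smad1 rose 5.33-fold in anti-V5 IP (adjusted p = 0.00205, limma) and 5.94-fold in anti-GFP IP (adjusted p = 0.00178), and Smad7 rose 3.38-fold (adjusted p = 0.00308) and 3.60-fold (adjusted p = 0.00241). These 2 genes kept both calls under all 16 alternatives. Bmpr1b, Bmpr2, Acvr1, Smad4 and Smad5 rose in both IPs, each with calls lost under some settings. With normexp background correction Bmpr1b had log2 fold changes of -0.29 in anti-V5 IP (adjusted p = 0.741, limma) and 0.25 in anti-GFP IP (adjusted p = 0.950). With the mean of its probes Bmpr2 had 0.86 (adjusted p = 0.109) and 0.75 (adjusted p = 0.141). Bmpr1a rose in anti-GFP IP (1.84-fold, adjusted p = 0.0288), but not with the mean of its probes (adjusted p = 0.130). In anti-V5 IP it had 1.60-fold and an adjusted p of 0.0735, and it passed with slide as a block (adjusted p = 0.0320), in the authors' deposited table (0.0393) and without either mock array (0.0306 each). Smad2 and Smad3 were not called. Some of the lost calls came from fits without 1 array, which leave 1 array in a group. In those fits the log2 fold changes in anti-V5 IP were 1.15 to 1.70 for Bmpr1b and 1.11 to 1.32 for Bmpr2. Acvr1 had 0.61 to 0.97, Smad4 1.03 to 1.67 and Smad5 1.01 to 1.30. In anti-GFP IP the same genes, in this order, had 1.34 to 1.71, 0.94 to 1.40, 0.78 to 1.01, 0.83 to 1.79 and 1.21 to 1.43. Every sample was bulk RNA, so the cell type that a signal came from cannot be told.

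Mock IP was itself compared with input, because RNA can come down with the IgG control. Bmpr2 was 2.48-fold higher (log2 1.31 ± 0.28, SE, adjusted p = 0.0328, limma) and Smad3 2.03-fold higher (log2 1.02 ± 0.22, adjusted p = 0.0345) in mock IP than in input. The other Bmpr2 probes gave 1.28-fold and 1.80-fold (adjusted p = 0.543 and 0.164 over all probes), and the other Smad3 probes 1.69-fold and 1.48-fold (adjusted p = 0.142 and 0.175), none of them called. With the mean of all kept probes neither gene was called (adjusted p = 0.131 for Bmpr2 and 0.0617 for Smad3). These 2 of 10 genes stand against 6.64% of all genes called higher. Both also lost their calls with normexp background correction, with no filter on dim probes and with only the groups compared. Those settings called 0.042%, 0.26% and 0.12% of all genes higher. Both lost them too without some single arrays, where few of all genes were called or fewer than in the full fit. Without each array in turn, the log2 fold change over input was 1.06 to 1.56 for Bmpr2 and 0.91 to 1.14 for Smad3. For Bmpr2 the V5 and GFP levels over input, 2.32-fold and 2.24-fold, were near the mock level over input. Smad7 had 1.86-fold in mock IP over input (adjusted p = 0.0520), and it passed with the slide as a block (adjusted p = 0.0184), with quantile normalization (0.0343) and with the mean of all kept probes (0.0486). Bmpr1b had a log2 difference of -0.83 in mock IP from input (adjusted p = 0.0911, limma), and with the slide as a block it was called lower (adjusted p = 0.0426). Smad1 in mock IP had a log2 difference of -0.43 from input (adjusted p = 0.244), with both mock arrays below both inputs.

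**Figure D4:**
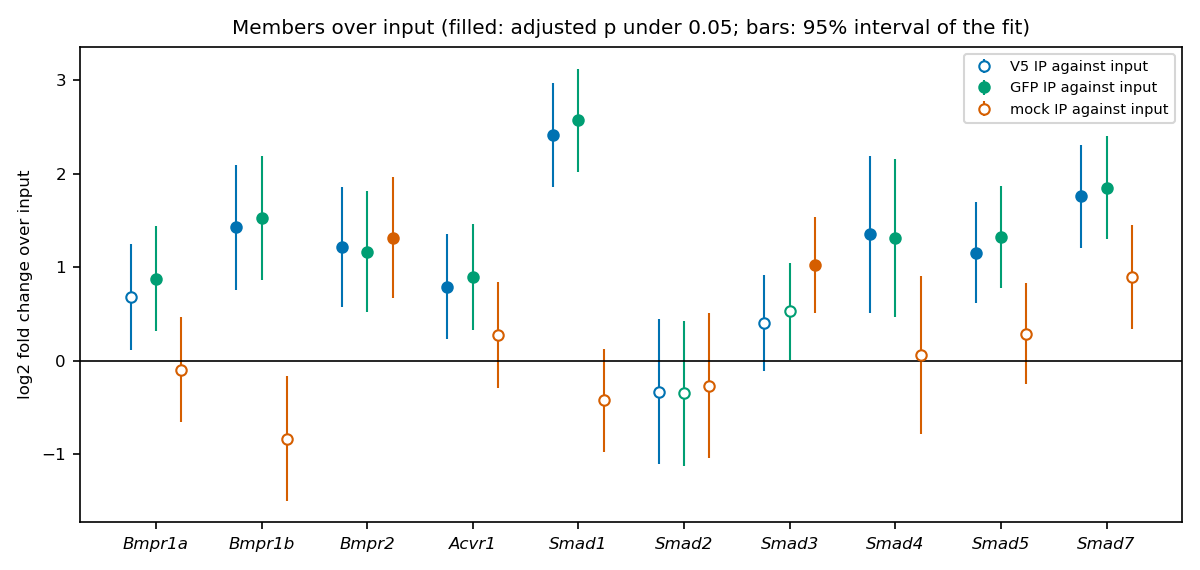
Log2 fold change over input (vertical axis) of the 10 genes in anti-V5 IP, anti-GFP IP and mock IP, with the 95% interval of the fit and filled points at an adjusted p under 0.05. Smad1 is at 2.42 and 2.57 in V5 and anti-GFP IP and at -0.43 in mock IP, while Bmpr2 is at 1.21, 1.17 and 1.31.

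The antibodies were compared directly as well. No gene of the array was called between anti-V5 IP and anti-GFP IP by limma (0.00% of all genes), and 190 genes, 0.998%, had an unadjusted p under 0.05, with none of the 10 among them. The log2 differences of anti-V5 IP minus anti-GFP IP ran from -0.20 for Bmpr1a to 0.05 for Bmpr2. The 95% interval was -0.71 to 0.40 for Smad1 and, the widest of the 10, -0.80 to 0.88 for Smad4.

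Other genes of the pathway were called in both directions. Of 81 genes in 6 lists, 75 were tested. In anti-V5 IP against mock IP 15 were called higher and 13 lower, against 14.6% and 21.4% of all genes. In anti-GFP IP 19 were called higher and 18 lower, against 16.3% and 26.5%. Their median log2 fold change was -0.19 in anti-V5 IP and -0.02 in anti-GFP IP, against -0.44 for all genes. The lower calls depended on the scaling. With arrays centred on their median, 6 were lower in anti-V5 IP and 10 in anti-GFP IP, against 8.25% and 15.1% of all genes. Fitted with slide as a block, 28 were lower in anti-V5 IP and 26 in anti-GFP IP, against 38.5% and 40.3% of all genes. Without mock 1, fewer pathway genes and fewer of all genes were called in each direction in both IPs. The same held in anti-V5 IP without V5 1 and in anti-GFP IP without GFP 1. Those fits leave 1 array in a group, so their counts are not given.

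Of 17 tested ligands 0 rose, while 3 fell in anti-V5 IP and 7 in anti-GFP IP. Over all genes 14.6% and 16.3% were called higher, and 21.4% and 26.5% lower. At an unadjusted p under 0.05 (limma), 0 ligands were higher in either IP, 11 were lower in anti-V5 IP and 10 in anti-GFP IP. In either direction, 50.2% of all genes had such a p in anti-V5 IP and 53.6% in anti-GFP IP. Bmp4, the ligand that induces mouse primordial germ cells, fell by 1.09 on the log2 scale in anti-V5 IP (adjusted p = 0.0161, limma) and by 1.31 in anti-GFP IP (adjusted p = 0.00688). Tgfb1, the founding TGF-beta ligand, fell by 1.12 and by 1.20. Bmp2 had 0.56 and 0.30, with signals near or below background, and Tgfb2 had -0.12 and 0.40, none of them called. The median of the ligands was -0.85 in anti-V5 IP and -0.95 in anti-GFP IP, 0.41 and 0.51 below that of all genes.

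Of 11 secreted antagonists, 4 rose in each IP, while 3 fell in anti-V5 IP and 4 in anti-GFP IP. Of all genes, 14.6% rose and 21.4% fell in anti-V5 IP, and 16.3% and 26.5% in anti-GFP IP. Twsg1, which binds BMPs outside the cell, rose 5.38-fold in anti-V5 IP (adjusted p = 0.00226, limma) and 6.29-fold in anti-GFP IP (adjusted p = 0.00183). Bmper rose 2.21-fold and 2.22-fold. The Nodal antagonist Lefty1 fell by 0.98 and by 1.04 on the log2 scale. The BMP antagonist Nbl1 also fell, with log2 fold changes of -1.498 and -1.264.

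Of 12 other receptors and co-receptors, 2 rose and 2 fell in anti-V5 IP, against 14.6% and 21.4% of all genes. In anti-GFP IP 3 rose and 2 fell, against 16.3% and 26.5%. Tgfbr1, the type I receptor for TGF-beta, rose 5.45-fold in each IP (adjusted p = 0.00208 in anti-V5 IP and 0.00183 in anti-GFP IP, limma). Rgmb, a BMP co-receptor, rose 4.07-fold and 4.20-fold. Acvrl1, a type I receptor of endothelium, fell by 1.19 and by 1.33 on the log2 scale, and Amhr2, the type II receptor for anti-Müllerian hormone, by 0.99 and by 1.17.

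Of 15 other Smads and intracellular inhibitors, 6 rose in anti-V5 IP and 8 in anti-GFP IP, against 14.6% and 16.3% of all genes. In each IP 2 fell, against 21.4% and 26.5%. The corepressor Skil, also called SnoN, rose 4.27-fold and 4.41-fold (adjusted p = 0.00233 and 0.00193, limma). Lemd3, an inner nuclear membrane protein that binds receptor-regulated Smads, rose 4.92-fold and 4.79-fold. The 2 that fell were Smads: Smad6, the inhibitory Smad of the BMP branch, fell by 0.68 and by 0.79 on the log2 scale (adjusted p = 0.0430 and 0.0231). Smad9, the BMP-activated relative of Smad1 and Smad5, fell by 1.01 in anti-V5 IP. It was not well above background on either GFP array. There a bound on the ratio of the means, taken as for Bmpr1b, put it 2.34-fold below mock IP. With normexp background correction Smad6 and Smad9 were called in neither IP. The log2 fold change of Smad9 in anti-GFP IP turned to 0.093 there (adjusted p = 0.981, limma).

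Of 12 Smad adaptors and partners, 2 rose in anti-V5 IP and 3 in anti-GFP IP, against 14.6% and 16.3% of all genes. In each IP 1 fell, against 21.4% and 26.5%. Xiap, which links BMP receptors to the TAK1 kinase, rose 6.44-fold and 5.79-fold, and the coactivator Crebbp rose 2.51-fold and 2.73-fold. Tab1, a TAK1 partner, fell by 1.24 and by 1.27 on the log2 scale. The Nodal-branch factor Foxh1 had -0.48 and -0.47 and was not called.

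Of 8 target genes, 1 rose and 2 fell in each IP. The shares of all genes were 14.6% and 21.4% in anti-V5 IP and 16.3% and 26.5% in anti-GFP IP. Id4 rose 3.42-fold in anti-V5 IP and 3.57-fold in anti-GFP IP (adjusted p = 0.00815 and 0.00613, limma), while Id1, a direct BMP target, had log2 values of 0.38 and 0.42 and was not called. Atoh8 fell by 1.03 and by 1.13 on the log2 scale.

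**Figure D5:**
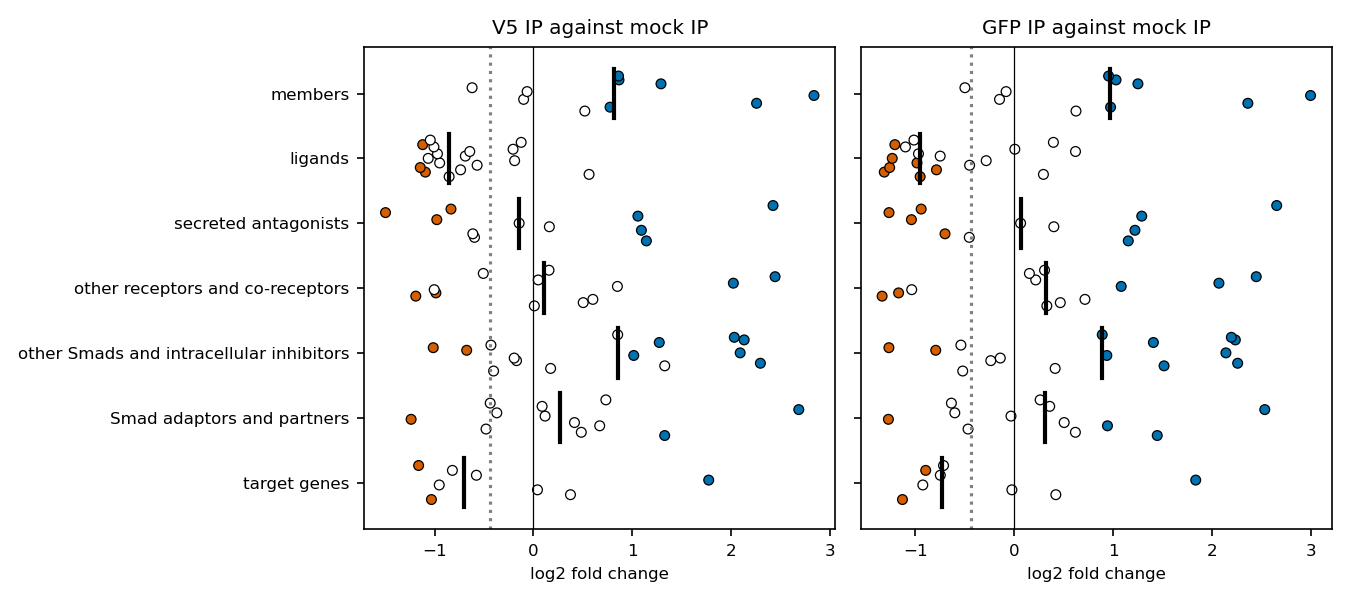
Log2 fold change over mock IP (horizontal axis) of the 10 genes (top) and of 6 lists of other pathway genes, for anti-V5 IP (left) and anti-GFP IP (right). Blue points were called higher, orange lower and open ones not called, black bars are list medians and the dotted line is the median of all genes. The 10 genes have medians of 0.82 and 0.97, and the ligands -0.85 and -0.95.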

How the data were processed

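Per the file headers, Agilent Feature Extraction 9.1.3.1 read the arrays. It subtracted the background from each deposited processed intensity, detrended it and put a surrogate where a spot did not exceed background. The deposited mean spot intensity and local median background served an alternative with normexp background correction (offset 50). A table of the whole series was deposited too, whose signal is background-subtracted and normalized to the median in GeneSifter, per the file headers. Log2 of that deposited signal plus 0.1 was another alternative. Entries were matched to spots through the deposited quality score, and 44985 of 45018 matched 1 spot within 1e-05.

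From these files, log2 of the processed intensity minus each array's 75th percentile over the gene probes was computed. Spots of 1 probe were averaged, outlier spots excepted. Probes had to be well above background on both arrays of 1 group or more. The kept probe with the highest mean stood for its gene, and a further fit covered all kept probes. Of 19032 genes, 6546 had more than 1 kept probe. Probes were named through the RefSeq gene table of GRCm38.p6, 22944 by accession, 6664 by current symbol and 3095 by synonym, and 8471 kept the name in the file. No coordinates were used. No representing probe of the 10 genes was saturated.

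Comparisons used lmFit and eBayes of limma 3.58.1 under R 4.3.3, with tests two-sided and Benjamini-Hochberg adjustment over all genes. The fits were tested on simulated data. Alternatives changed the background correction, scaling, filter, probe rule, table, arrays in the fit and slide block, and left out each array in turn.

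The members, lists and the rule for named genes were chosen with earlier results of these data known. The rule took all 10 genes with every probe and, from each list, the 2 genes of largest and the 2 of smallest summed moderated t in both IPs against mock IP. Of the genes so chosen, 1 is not reported here.

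All replicates numbered 1 shared slide 1, and all numbered 2 shared slide 2. Each group had the same array position on both slides, so position and group cannot be told apart. The small number of arrays sets a limit on precision.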

Additional observations from a re-analysis of the deposited data

How the results depend on the processing

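With 16 alternatives, 626 of the log2 fold changes of the 10 genes kept their direction and side of the threshold, 136 lost a call, 14 gained one and 24 changed sign. With normexp background correction, 1 gene was higher in anti-V5 IP and 1 in anti-GFP IP against mock IP. Of the pathway genes 8 were higher and 0 lower in anti-V5 IP, and 9 higher and 0 lower in anti-GFP IP. That setting called 5.02% of all genes higher and 0.058% lower in anti-V5 IP, and 6.22% and 2.45% in anti-GFP IP. Against input, 2 genes were called in anti-V5 IP, 3 in anti-GFP IP and 0 in mock IP. The shares of all genes higher and lower there were 6.25% and 1.76%, 6.60% and 2.49%, and 0.042% and 0%. With no filter on dim probes, which tests more genes, 2 genes were higher in anti-V5 IP against mock IP. Of the pathway genes, 5 were lower in anti-V5 IP and 10 in anti-GFP IP. Of all genes, 7.04% were higher and 3.56% lower in anti-V5 IP, and 11.5% were lower in anti-GFP IP. Against input, 5 genes were called in anti-GFP IP and 0 in mock IP. The shares of all genes higher and lower there were 8.97% and 8.36% in anti-GFP IP, and 0.26% and 0.25% in mock IP. Fits of the compared groups alone, on fewer arrays, gave 2 genes higher in anti-V5 IP and 3 in anti-GFP IP against mock IP. Of the pathway genes, 1 was lower in anti-V5 IP and 10 in anti-GFP IP. Of all genes, 10.8% were higher and 2.13% lower in anti-V5 IP, and 14.4% and 15.4% in anti-GFP IP. In mock IP against input 0 genes were called, with 0.12% of all genes higher and 0.11% lower. Quantile normalization gave 1 lower gene in anti-V5 IP, Smad3, against 20.8% of all genes. The mean of all kept probes gave 1 called gene in mock IP against input, Smad7, while Bmpr2 and Smad3 lost their calls. That setting called 6.60% of all genes higher and 5.03% lower in mock IP against input. Median centring and the authors' deposited table each gave 6 lower pathway genes in anti-V5 IP and 10 in anti-GFP IP. Median centring left 8.25% of all genes lower and 14.9% higher in anti-V5 IP, and 15.1% lower and 17.6% higher in anti-GFP IP. The deposited table left 8.01% of all genes lower in anti-V5 IP and 14.8% in anti-GFP IP. Where no construction of the setting is named, the cause was not tested.

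The replicates share a number and a slide. Deviations of same-numbered arrays correlated between 0.31 and 0.78 over genes, but with only 2 numbers this does not show pairing beyond the slide. With the slide as a replicate block, the genes called against mock IP were 6 higher and 1 lower (Smad3) in anti-V5 IP and 7 higher in anti-GFP IP. In that fit 28 pathway genes were lower in anti-V5 IP against mock IP, as were 38.5% of all genes. Against input, 8 genes were called in either IP and 4 in mock IP, of which Bmpr1b was lower. The shares of all genes called higher and lower against input were 20.42% and 24.28% in anti-V5 IP and 22.005% and 26.86% in anti-GFP IP. In mock IP they were 21.44% and 13.41%.

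Leaving out each array in turn gave 2 to 5 higher and 0 to 1 lower genes in anti-V5 IP, 2 to 6 higher genes in anti-GFP IP, and 2 to 7, 2 to 8 and 0 to 2 called genes in anti-V5 IP, anti-GFP IP and mock IP against input. Of the pathway genes, 6 to 18 were higher and 0 to 18 lower in anti-V5 IP, and 8 to 18 higher and 1 to 21 lower in anti-GFP IP.

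Signs changed mainly in uncalled values near 0. Against mock IP, Bmpr2 had 0.055 and 0.031 in anti-V5 IP and anti-GFP IP with median centring, 0.079 and 0.048 in the authors' deposited table, 0.016 in anti-V5 IP with the mean of its probes, and -0.35 to 0.15 and -0.40 to 0.10 without each array. Smad2 had 0.090 and 0.098 with median centring, 0.14 and 0.17 in the authors' deposited table, and -0.43 to 0.30 and -0.45 to 0.29 without each array. In mock IP against input, Smad4 had -0.14 with quantile normalization, -0.021 with median centring and -0.19 with the mean of its probes, Bmpr1a had 0.0034 with normexp and -0.33 to 0.13 without each array, and Smad2 had -0.63 to 0.097 without each array. The called value of Bmpr1b in anti-V5 IP against input turned to -0.29 with normexp.

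For the other probes and pathway genes the same settings were added after seeing the data. Bmpr2 probe A_51_P419389 had -0.037 and -0.0051 with normexp and -0.33 to 0.59 and -0.44 to 0.48 without each array. Bmpr2 probe A_51_P492648 had -0.057 in anti-V5 IP with normexp, 0.039 in the authors' deposited table and 0.023 with median centring in anti-GFP IP, and -0.42 to 0.45 and -0.59 to 0.28 without each array. Smad3 probe A_51_P376454 in anti-GFP IP had 0.079 with quantile normalization, 0.25 with normexp, 0.022 in the authors' deposited table, 0.014 with median centring and -0.40 to 0.074 without each array. Bmp2 had -0.38 in anti-V5 IP with normexp and -0.095 to 0.69 in anti-GFP IP without each array. Tgfb2 had 0.030 with median centring, 0.057 in the authors' deposited table and -0.66 to 0.41 without each array in anti-V5 IP, and -0.045 to 0.84 in anti-GFP IP. The called value of Smad9 in anti-GFP IP turned to 0.093 with normexp. Signal near background limits Bmpr1b, Bmp2, Smad9 and Smad3 probe A_51_P376454.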
